A study of Homo sapiens with 2 samples.

Results

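Forkhead, SOX and Krüppel-like factors are DNA-binding proteins that set cell identity and growth. The members described here are the 85 protein-coding (NM) RefSeq records whose gene symbols place them in these families (49 FOX, 19 SOX and 17 KLF), out of 23709 genes measured. The cells are Caco-2, an established line derived from a human colorectal adenocarcinoma, and each gene was measured in 1 library of RNC-mRNA and 1 library of mRNA. RNC-mRNA is the polyadenylated RNA recovered with ribosome-nascent chain complexes, that is, with ribosomes carrying growing peptides. The mRNA library was made from the polyadenylated RNA of total RNA. Cells for both levels came from ATCC and were grown in DMEM with 10% fetal bovine serum, penicillin/streptomycin and ciprofloxacin, and the labels name no treatment. The labels do not say whether both libraries came from the same culture.

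Forkhead factors bind DNA through a winged-helix domain. FOXA proteins open closed chromatin in liver and gut, FOXO proteins are held in the cytoplasm when AKT kinases phosphorylate them, and FOXM1 drives genes of mitosis. SOX factors bend DNA through a high-mobility-group box, and SOX9 marks the stem and progenitor cells of intestinal crypts. Krüppel-like factors bind GC-rich and CACCC sites through a C-terminal array of zinc fingers. KLF5 is active in dividing crypt cells and KLF4 in differentiated surface cells of the gut.

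The totals behind the values, inferred from the values themselves, were 11083302 reads in the RNC-mRNA library and 9640364 reads in the mRNA library. Levels are RPKM, reads scaled to transcript length and to the size of the library. The translation ratio is the log2 of RNC-mRNA over mRNA RPKM, each with 0.1 RPKM added, minus the median of all 13402 genes with a mean of at least 1 RPKM, which are called expressed. It is a relative value, since RPKM fixes each library's total. The intervals given with the ratios are exact 95% counting intervals from the reads behind each gene and cover counting error only. With 1 library per level there is no replicate check and no test, and a distance of 2-fold from the median (1 on the log2 scale) serves as a rule of size. The colonic epithelial markers fitted the labelled cells: 10 of 12 reached 1 RPKM in the RNC-mRNA library and 11 of 12 in the mRNA library, with KRT20 below that level in both. Of leukocyte and endothelial markers, 1 of 5 each reached 1 RPKM in either library. All 6 fibroblast markers did so in both, with summed levels of 53.4 RPKM in RNC-mRNA and 69.0 RPKM in mRNA, and their part in the results was not tested.

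Before the values, the sequence around the start codon is shown for 4 members of high and 4 of low ratio that have a 5' leader in GENCODE release 29, because this is where initiation selects the reading frame. Each run reads 5′ to 3′ on the transcript, with the start codon, the base after it and the third base before it in capitals. Coordinates are those of the start codon on GRCh38.
FOXQ1 at chr6:1312705-1312707, plus strand: tgcgcgGgcATGA
FOXA2 at chr20:22584276-22584278, minus strand: taaactGccATGC
FOXA1 at chr14:37594970-37594972, minus strand: ggctccAggATGT
SOX2 at chr3:181712361-181712363, plus strand: agcgccCgcATGT
SOX4 at chr6:21594535-21594537, plus strand: gccgagGccATGG
SOX15 at chr17:7589674-7589676, minus strand: tcccaaCccATGG
SOX8 at chr16:981923-981925, plus strand: gcggccCcgATGC
KLF7 at chr2:207165566-207165568, minus strand: agcagcAgcATGG

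The strongest form of the initiation context described by Kozak has a purine at the third base before the start codon and G directly after it. Of the 4 members of high ratio, FOXQ1, FOXA2 and FOXA1 carry the purine and none carries the G. Of the 4 of low ratio, SOX4 and KLF7 carry both, SOX15 has the G alone and SOX8 neither. Among the 48 expressed members with such a context, 33 (68.8%) had the purine, 26 (54.2%) the G and 18 (37.5%) both. Among the 11238 expressed NM records with one, the shares were 85.5%, 52.8% and 45.3%. The purine was found in 5 of 11 SOX, 17 of 23 FOX and 11 of 14 KLF members. These matches describe the annotated start sites only.

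Of the 85 members, 49 were expressed, 23 were listed at lower levels and 13 were listed at 0 in both libraries. The expressed share was 14 of 17 KLF (82.4%), 11 of 19 SOX (57.9%) and 24 of 49 FOX genes (49.0%), beside 64.0% of all NM records. A level of at least 1 RPKM was reached in both libraries by 47 members. SOX8 and KLF14 reached it in the mRNA library alone, and none did so in the RNC-mRNA library alone. Just inside the limit lay FOXP3, the factor of regulatory T cells, with 1.06 RPKM in RNC-mRNA and 1.13 RPKM in mRNA. Just outside it lay FOXL2, a factor of the ovary, with 0.557 RPKM in RNC-mRNA and 0.996 RPKM in mRNA. Each level is an average over the culture, so fewer cells and less RNA per cell cannot be told apart.

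The summed level of the 49 FOX records was 491 RPKM in the RNC-mRNA library and 338 RPKM in the mRNA library. The SOX records summed to 121 RPKM in RNC-mRNA and 133 RPKM in mRNA, and the KLF records to 151 RPKM in RNC-mRNA and 147 RPKM in mRNA. Of the 3 sums, that of FOX differed most between the libraries, and FOXA1, FOXM1 and FOXQ1 had the largest differences in level among FOX genes.

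**Figure D1:**
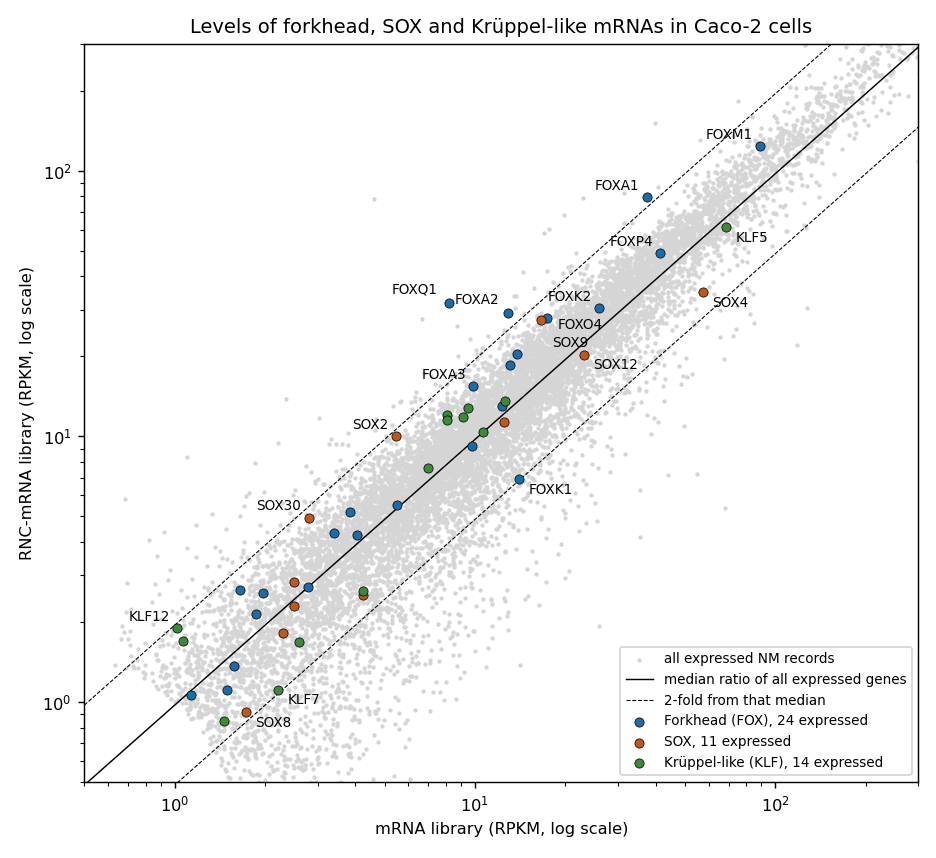
Level of each expressed member in the RNC-mRNA library (vertical axis) against the mRNA library (horizontal axis), both in RPKM on log scales, with all expressed NM records in grey inside the plotted range. The solid line is the median ratio of all expressed genes and the dashed lines lie 2-fold from it; FOXQ1, FOXA1 and FOXA2 lie above the upper dashed line and no member lies below the lower one.

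At least 2-fold above the median lay 3 of the 49 expressed members, FOXQ1, FOXA2 and FOXA1, where 1.37% of all expressed genes did. At least 2-fold below it lay 0 members, where 11.8% of all expressed genes did. Among expressed NM records the shares were 1.33% above and 8.88% below. The whole counting interval lay beyond the 2-fold line above for 2 members, FOXQ1 and FOXA2 (0.485% of all expressed genes), and below for 0 (6.37%). The interval of FOXA1 began at 0.99, just short of the upper line. It rests on the fewest whole reads, 1489 in RNC-mRNA and 609 in mRNA, and more reads would narrow it. The interval lay wholly above the median for 21 members, beside 31.3% of all expressed genes and 33.5% of expressed NM records, and wholly below it for 10, beside 31.6% of all expressed genes and 29.7% of expressed NM records. It spanned the median for 18 members. Above the median gene lay 31 of the 49 members, where 50% of all expressed genes and 52.6% of expressed NM records did. The median ratio of the 49 was 0.21 (order-statistic interval -0.0047 to 0.46 over members), beside 0.03 for all expressed NM records. It was 0.33 in FOX, with 18 of 24 above the median gene, 0.16 in KLF, with 9 of 14 above, and -0.10 in SOX, with 4 of 11 above. The intervals over members, 0.04 to 0.59 in FOX, -0.69 to 0.84 in SOX and -0.64 to 0.61 in KLF, overlap one another, and the difference between families was not tested. These 95% intervals treat genes as independent, although all genes share the same pair of libraries.

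**Figure D2:**
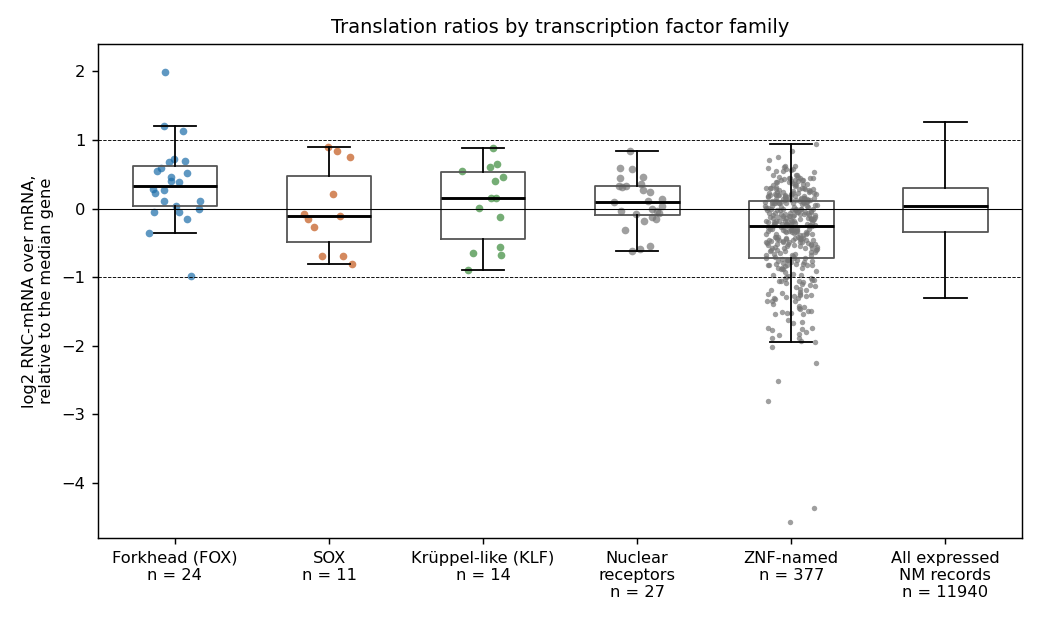
Relative log2 translation ratio (vertical axis) of the expressed FOX, SOX and KLF members, nuclear receptors, ZNF-named genes and all expressed NM records; boxes give quartiles, the thick line the median, whiskers the last value within 1.5 box heights, and points single genes (none are drawn for all NM records). The FOX median of 0.33 is the highest of the 6 and the ZNF median of -0.25 the lowest, and the 3 member families reach from -0.98 to 1.99.

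Nuclear receptors, many of them ligand-controlled, had a median of 0.10 in 27 expressed members. None lay at least 2-fold from the median, beside 1.33% of expressed NM records above and 8.88% below. The 377 expressed ZNF-named NM records, mostly zinc-finger regulators, had a median of -0.25, with 63 (16.7%) at least 2-fold below and 0 above, beside the same shares. The ratios of the members were more widely spread than those of nuclear receptors, with an SD over genes of 0.60 in the members and 0.36 in nuclear receptors; it was 0.66 over all expressed NM records.

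FOXQ1, a forkhead factor that Wnt signalling induces in colorectal cancer, had the highest ratio of all members. Its level was 31.9 RPKM in the RNC-mRNA library and 8.19 RPKM in the mRNA library, on 820 and 183 reads. That is 3.97-fold above the median gene (1.99, interval 1.77 to 2.24), and its whole interval lies beyond the 2-fold line. In the mRNA library FOXQ1 ranked below FOXP1, FOXJ3 and FOXJ2, and in the RNC-mRNA library above all of them.

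The FOXA factors, pioneer factors of endoderm, were all 3 higher in RNC-mRNA. FOXA1 had 79.5 RPKM in RNC-mRNA and 37.4 RPKM in mRNA, on at least 1489 and 609 reads (1.12, interval 0.99 to 1.27). FOXA2 had 29.2 RPKM in RNC-mRNA and 12.9 RPKM in mRNA (1.21, interval 1.02 to 1.41). FOXA3, the weakest of them, had 15.5 RPKM in RNC-mRNA and 9.86 RPKM in mRNA (0.69, interval 0.43 to 0.96). The intervals of FOXA1 and FOXA2 overlap each other, and that of FOXA3 lies below both. The order of levels, FOXA1 above FOXA2 above FOXA3, was the same in both libraries.

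FOXM1, which activates genes of the G2 and M phases, was the most abundant member. It had 124 RPKM in RNC-mRNA and 88.8 RPKM in mRNA, on 5006 and 3120 reads, a ratio of 0.52 (interval 0.45 to 0.58). Its narrow interval reflects this depth and excludes both the median and the 2-fold line.

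Among the FOXO factors, targets of insulin and AKT signalling, FOXO4 was both the most abundant and the highest in ratio. FOXO4 had 28.0 RPKM in RNC-mRNA and 17.4 RPKM in mRNA (0.72, interval 0.58 to 0.88). FOXO1 had 5.19 RPKM in RNC-mRNA and 3.83 RPKM in mRNA (0.47, interval 0.22 to 0.73). FOXO3 had 5.53 RPKM in RNC-mRNA and 5.51 RPKM in mRNA (0.04, interval -0.16 to 0.24), and its interval lies wholly below that of FOXO4. FOXO3 shares near-identical sequence with FOXO3B, a non-coding record listed at 12.8 RPKM in RNC-mRNA and 11.6 RPKM in mRNA, so the split of reads between them is uncertain.

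The paralogs FOXK1 and FOXK2, repressors linked to autophagy and metabolism, lay on opposite sides of the median. FOXK1 had 6.90 RPKM in RNC-mRNA and 14.1 RPKM in mRNA, 1.97-fold below the median gene (-0.98, interval -1.11 to -0.87) and the lowest ratio of all expressed members. FOXK2 had 30.4 RPKM in RNC-mRNA and 25.9 RPKM in mRNA (0.27, interval 0.16 to 0.37). With ratios centred on NM records FOXK1 passes the 2-fold line, so its place at that line depends on the centre. FOXK1 has the longest transcript of the expressed members, at 11181 nt, of which 8979 nt follow the coding region; that GENCODE transcript has no 5' leader.

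FOXP factors act in lung, brain and immune development. FOXP4 had 49.1 RPKM in RNC-mRNA and 41.4 RPKM in mRNA (0.28, interval 0.21 to 0.36). FOXP1 had 20.3 RPKM in RNC-mRNA and 13.8 RPKM in mRNA (0.59, interval 0.48 to 0.71). FOXP1 was therefore less abundant than FOXP4 and higher in ratio, with intervals that do not overlap, whereas the interval of FOXP3 (-0.05, -0.88 to 0.77) covers both. FOXP2, a factor of speech-related brain circuits, rested on 2 reads in RNC-mRNA and 3 in mRNA.

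FOXJ3 and FOXJ2 are widely expressed and FOXJ1 builds motile cilia. FOXJ3 had 18.6 RPKM in RNC-mRNA and 13.04 RPKM in mRNA (0.55, interval 0.41 to 0.69), and FOXJ2 had 13.04 RPKM in RNC-mRNA and 12.3 RPKM in mRNA (0.12, interval -0.03 to 0.27). FOXJ1 had 2.63 RPKM in RNC-mRNA and 1.65 RPKM in mRNA (0.68, interval 0.15 to 1.29). All 3 were above the median gene, and the interval of FOXJ2 alone reached it.

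The FOXN group includes the thymic factor FOXN1 and the checkpoint factor FOXN3, and its 3 expressed genes ranged from -0.15 to 0.38. FOXN3 had 9.22 RPKM in RNC-mRNA and 9.80 RPKM in mRNA (-0.05). FOXN2 had 4.34 RPKM in RNC-mRNA and 3.40 RPKM in mRNA (0.38, interval 0.11 to 0.67), and FOXN1 had 1.37 RPKM in RNC-mRNA and 1.58 RPKM in mRNA (-0.15). Only for FOXN2, of these 3, did the interval exclude the median. FOXN4, a factor of the developing retina, was below the level limit, with 0.108 RPKM in RNC-mRNA and 0.588 RPKM in mRNA on 4 and 19 reads (-1.69, interval -4.43 to -0.82), so that its interval lies below the median.

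The remaining expressed forkhead genes are mainly patterning factors of embryonic tissues, and each was weak. FOXD2 had 4.25 RPKM in RNC-mRNA and 4.04 RPKM in mRNA (0.11), and FOXD1, a factor of kidney stroma, had 2.71 RPKM in RNC-mRNA and 2.79 RPKM in mRNA (-0.0047). FOXI3 had 2.57 RPKM in RNC-mRNA and 1.97 RPKM in mRNA (0.41). FOXC1, a factor of mesenchyme and eye, had 2.15 RPKM in RNC-mRNA and 1.86 RPKM in mRNA (0.23), and FOXB1 had 1.11 RPKM in RNC-mRNA and 1.49 RPKM in mRNA (-0.35). The counting interval of each of these 5 spanned the median. An antisense gene, FOXD2-AS1, is named after FOXD2, and no label gives a strand-specific step, so reads of the pair could be mixed.

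Forkhead genes listed at 0 in both libraries included FOXB2, FOXE1, FOXR1, FOXR2, FOXS1, FOXD4L4, FOXD4L5 and FOXD4L6. At their transcript lengths, a count of 0 allows up to 3 reads, that is 0.0782 to 0.234 RPKM in RNC-mRNA and 0.0899 to 0.269 RPKM in mRNA. FOXD4 and its copies FOXD4L1, FOXD4L2 and FOXD4L3 were listed at 0.0413, 0.0437, 0.145 and 0.0407 RPKM in RNC-mRNA. Their mRNA levels were 0.190, 0.0502, 0.267 and 0.234 RPKM. These genes are near-identical, so reads cannot be divided among them with certainty. FOXC2 rested on as few as 1 read in RNC-mRNA and none in mRNA. FOXF1, FOXF2, FOXI1, FOXI2, FOXL1, FOXD3, FOXE3 and FOXH1 were listed at 0.0436 to 0.668 RPKM in RNC-mRNA and 0.105 to 0.407 RPKM in mRNA. Each of these 8 rested on at most 17 reads in either library, and each interval spanned the median.

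**Figure D3:**
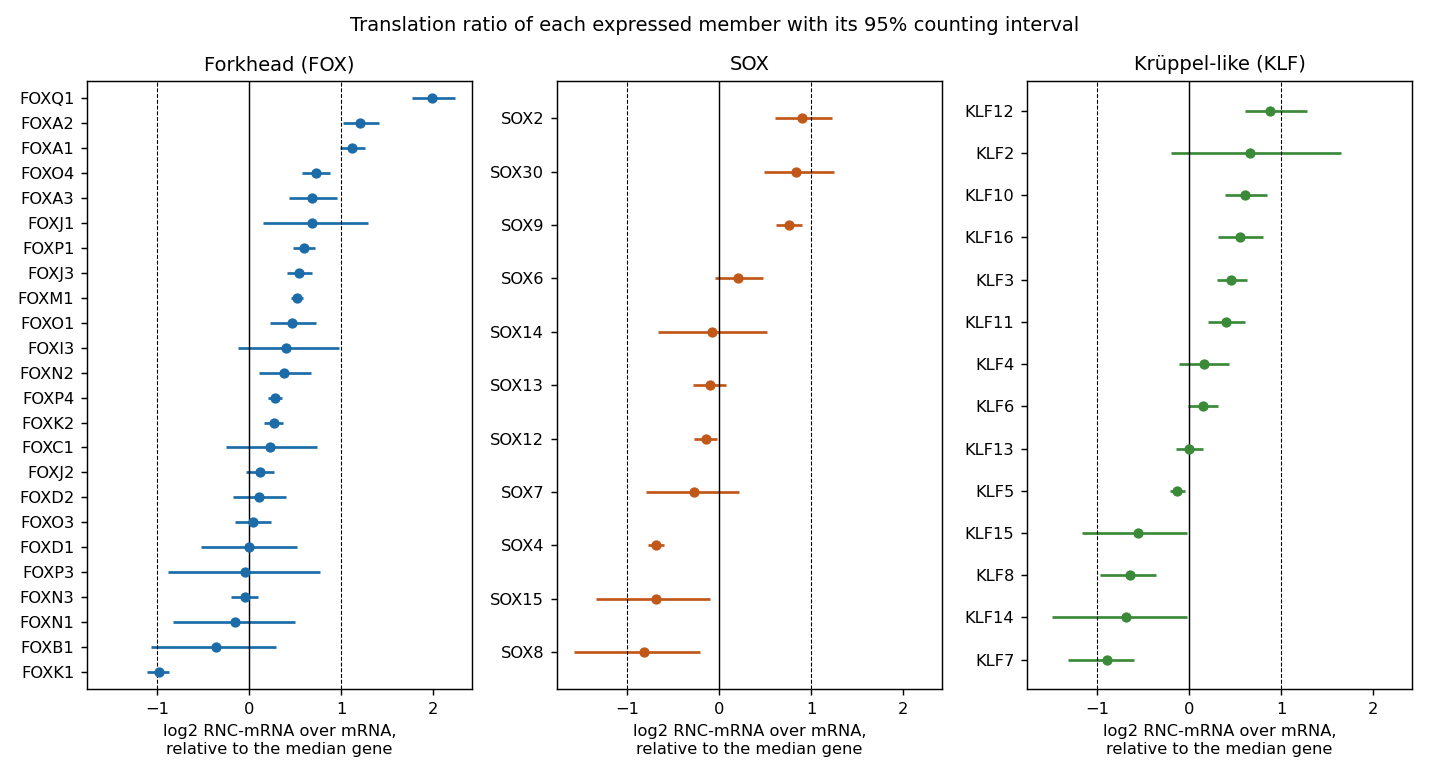
Relative log2 translation ratio (horizontal axis) of each expressed member by family, with the point estimate as a dot and the 95% counting interval as a line; the solid vertical line is the median gene and the dashed lines are 2-fold from it. FOXQ1 at 1.99 and FOXA2 at 1.21 have intervals wholly to the right of the 2-fold line, and FOXK1 at -0.98 lies at the left one.

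The ratios of the 11 expressed SOX genes ranged from -0.81 to 0.90. Highest was SOX2, a pluripotency and neural stem cell factor, with 10.0 RPKM in RNC-mRNA and 5.45 RPKM in mRNA (0.90, interval 0.61 to 1.23). SOX2 lies within the non-coding gene SOX2-OT, listed at 0.0723 RPKM in RNC-mRNA and 0.0416 RPKM in mRNA. SOX30, known from spermatids, had 4.95 RPKM in RNC-mRNA and 2.80 RPKM in mRNA (0.84, interval 0.49 to 1.25). SOX9, the crypt factor, had 27.3 RPKM in RNC-mRNA and 16.6 RPKM in mRNA (0.76, interval 0.62 to 0.90). For these 3 the intervals excluded the median and overlapped one another.

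SOX4, a SOXC factor raised in many carcinomas, was the most abundant SOX gene and lay on the other side. It had 34.8 RPKM in RNC-mRNA and 57.6 RPKM in mRNA, on at least 1884 and 2707 reads, 1.61-fold below the median gene (-0.68, interval -0.77 to -0.60). SOX12, the other expressed SOXC factor, had 20.3 RPKM in RNC-mRNA and 23.1 RPKM in mRNA (-0.15, interval -0.27 to -0.02). SOX11, the third of the group, was listed at 0 in both libraries. SOX4 thus ranked above SOX9 in both libraries, but was further above it in mRNA.

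The SOXE factors SOX9 and SOX8, which act together in the embryonic testis, differed in level and in ratio. SOX8 had 0.917 RPKM in RNC-mRNA and 1.74 RPKM in mRNA, on 31 and 51 reads (-0.81, interval -1.57 to -0.21), so that its interval lies below that of SOX9. SOX10, the neural crest factor of the group, rested on 0 reads in RNC-mRNA and 1 read in mRNA. SOX15, a single-member group, had 2.52 RPKM in RNC-mRNA and 4.24 RPKM in mRNA (-0.69, interval -1.34 to -0.10).

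SOXD factors have a coiled-coil region and no activation domain. SOX13 had 11.3 RPKM in RNC-mRNA and 12.5 RPKM in mRNA (-0.10), and SOX6 had 2.83 RPKM in RNC-mRNA and 2.51 RPKM in mRNA (0.21). SOX5 was below the level limit, with 0.853 RPKM in RNC-mRNA and 0.388 RPKM in mRNA, on at least 43 and 17 reads; its interval of 0.34 to 2.08 lies above the median. The endothelial SOX7 had 1.82 RPKM in RNC-mRNA and 2.29 RPKM in mRNA (-0.28), and SOX14 had 2.30 RPKM in RNC-mRNA and 2.49 RPKM in mRNA (-0.07). The intervals of SOX6, SOX7, SOX13 and SOX14 spanned the median.

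SOX17 and SOX3, factors of endoderm and of the nervous system, were listed at 0 in both libraries. SOX18, a factor of lymphatic vessels, had 0.159 RPKM in RNC-mRNA and 0.608 RPKM in mRNA, on 3 and 10 reads. SOX1 and SOX21 rested on at most 12 reads in either library.

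Krüppel-like genes were the family with the largest expressed share. KLF5 was by far the most abundant, with 61.3 RPKM in RNC-mRNA and 68.8 RPKM in mRNA (-0.13, interval -0.21 to -0.04). KLF6, a growth-regulating factor induced by injury, had 13.6 RPKM in RNC-mRNA and 12.5 RPKM in mRNA (0.15, interval -0.01 to 0.32). KLF4 had 7.63 RPKM in RNC-mRNA and 7.003 RPKM in mRNA (0.16, interval -0.11 to 0.44). KLF2, which keeps vessel lining quiescent, had 1.70 RPKM in RNC-mRNA and 1.07 RPKM in mRNA on at least 31 and 17 reads (0.66, interval -0.19 to 1.65). KLF7, a neuronal factor of the same activating group, had the lowest ratio of the expressed KLF genes, with 1.11 RPKM in RNC-mRNA and 2.21 RPKM in mRNA (-0.89, interval -1.32 to -0.60). KLF5 and KLF7 were the members of this group below the median by interval, and none was above.

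The repressors that recruit CtBP did not share a direction. KLF3 had 12.8 RPKM in RNC-mRNA and 9.50 RPKM in mRNA (0.46, interval 0.30 to 0.63). KLF12 had 1.90 RPKM in RNC-mRNA and 1.02 RPKM in mRNA, the highest KLF ratio (0.88, interval 0.60 to 1.29). KLF8, encoded on the X chromosome, had 2.61 RPKM in RNC-mRNA and 4.25 RPKM in mRNA (-0.64, interval -0.97 to -0.36). KLF8 and KLF12 therefore differ in ratio by intervals that lie on opposite sides of the median.

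Among the repressors that recruit SIN3, 4 of 5 expressed genes were above the median gene, KLF13 barely so. KLF10, which TGF-beta induces, had 12.1 RPKM in RNC-mRNA and 8.09 RPKM in mRNA (0.61, interval 0.39 to 0.85). KLF16 had 11.6 RPKM in RNC-mRNA and 8.08 RPKM in mRNA (0.55, interval 0.31 to 0.80), and KLF11, also known from TGF-beta induction, had 11.8 RPKM in RNC-mRNA and 9.13 RPKM in mRNA (0.40, interval 0.21 to 0.61). The intervals of these 3 lie above the median and overlap one another. KLF13 had 10.4 RPKM in RNC-mRNA and 10.6 RPKM in mRNA (0.0034), and KLF14, an imprinted single-exon gene, had 0.846 RPKM in RNC-mRNA and 1.46 RPKM in mRNA (-0.68, interval -1.49 to -0.02). The sign of KLF13 turned with 4 of the alternatives tried.

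KLF15, a factor of glucose and amino acid metabolism, had 1.68 RPKM in RNC-mRNA and 2.59 RPKM in mRNA (-0.56, interval -1.16 to -0.02). KLF9, induced by thyroid and glucocorticoid hormones, was below the level limit with 0.398 RPKM in RNC-mRNA and 0.438 RPKM in mRNA. KLF1, the erythroid factor, was listed at 0 in both libraries. KLF17, a germ cell factor, was listed at 0 in RNC-mRNA, where 3 reads would make 0.0865 RPKM, and at 0.265 RPKM in mRNA on 8 reads. The 6 KLF genes known from induction by serum, phorbol ester or TGF-beta (KLF2, KLF4, KLF5, KLF6, KLF10 and KLF11) had a median of 0.28, with 5 above the median gene and none 2-fold from it. By counting interval 2 lay above, 1 below and 3 spanned the median. Of expressed NM records, 52.6% lay above the median gene and 33.5% did so by interval.

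**Figure D4:**
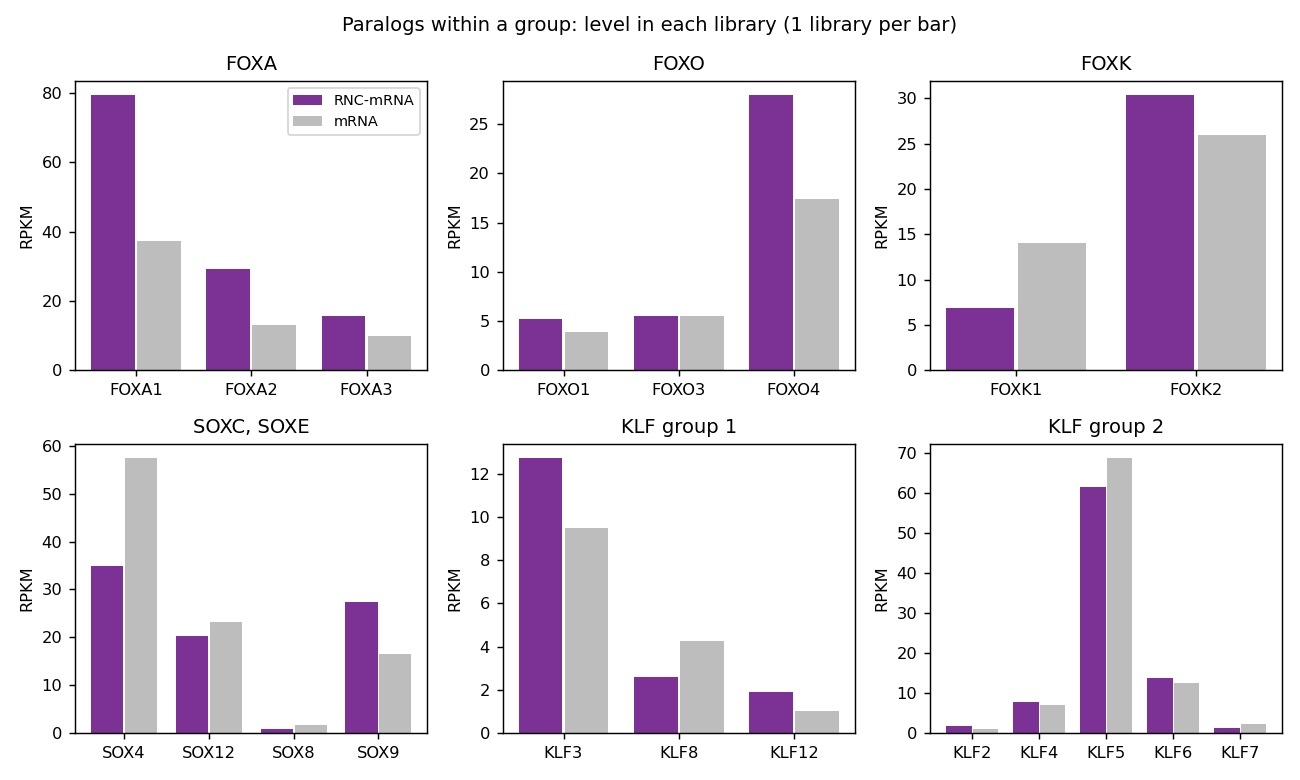
Level in RPKM (vertical axes, from 0, scaled per panel) of related members in the RNC-mRNA library (purple) and the mRNA library (grey), 1 library per bar and no error bars. All 3 FOXA genes and FOXO4 stand higher in RNC-mRNA, FOXK1 and SOX4 stand lower, and in the KLF groups KLF3 and KLF12 stand higher while KLF8 and KLF7 stand lower.

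Of the 49 expressed members, 9 (18.4%) have a single exon in GENCODE, against 2.51% of 11559 expressed NM records with a matched transcript; these 9 are FOXQ1, FOXC1, FOXD1, FOXD2, SOX2, SOX4, SOX12, SOX14 and KLF14. The single-exon members ranged from -0.68 to 1.99 with a median of -0.0047, and the 40 others ranged from -0.98 to 1.21 with a median of 0.28. Over all expressed NM records, the single-exon records had a median of 0.15 and the others 0.03. The members' 5' leaders had a median of 288 nt and their 3' untranslated regions 1500 nt, beside 195 nt and 989 nt over expressed NM records. GC content had a median of 55.7% in the members and 50.2% in NM records.

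Leaders with an upstream ATG were found in 31 members (63.3%), beside 51.6% of NM records. The ratio had a median of 0.21 in the members with an upstream ATG and 0.14 in the 18 without. These 18 include FOXK1 (-0.98), whose transcript has no leader to scan. With FOXK1 left out, their middle ratio is that of FOXC1 (0.23), so the order of the medians depends on it. SOX4 has 14 upstream ATGs in a leader of 1767 nt and FOXD2 has 15 in one of 2119 nt, and their ratios were -0.68 and 0.11. The pentamer ATTTA, the core of AU-rich elements that mark short-lived mRNAs, was found on the transcript strand of the 3' untranslated region in 41 members (83.7%), beside 66.9% of NM records. The members' ratios had medians of 0.23 with it and 0.08 in the 8 without it. Among those 8, KLF8, SOX6 and FOXN3 were scanned on GENCODE transcripts of 1543, 2699 and 2692 nt. Their reads and levels imply longer transcripts, so matches could be missed and the count of 41 could be too low. KLF7 held the most copies, 20, with a ratio of -0.89, and FOXN2 held 14 with a ratio of 0.38. A longer region holds more matches by its length alone, and none of these features was tested against the ratio.

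Across the 49 members, Spearman's rho with the ratio was -0.04 for the length of the 5' leader, -0.16 for the length of the 3' untranslated region, -0.15 for GC content and 0.02 for the number of exons. Over the 11559 NM records these were 0.08, 0.12, -0.17 and -0.10. These are descriptions across genes, which share the same pair of libraries. The members' rho for the 5' leader enters FOXK1, which has no annotated leader and the lowest ratio, at 0 nt. The correlations also include members, such as FOXP1, KLF8, SOX6 and FOXN3, whose GENCODE transcript is shorter than their reads and levels imply. Within the 24 FOX members rho was -0.34 for the 3' untranslated length, the largest in size of the features described for them. It takes 1108 nt for FOXP1 from that shorter transcript.

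**Figure D5:**
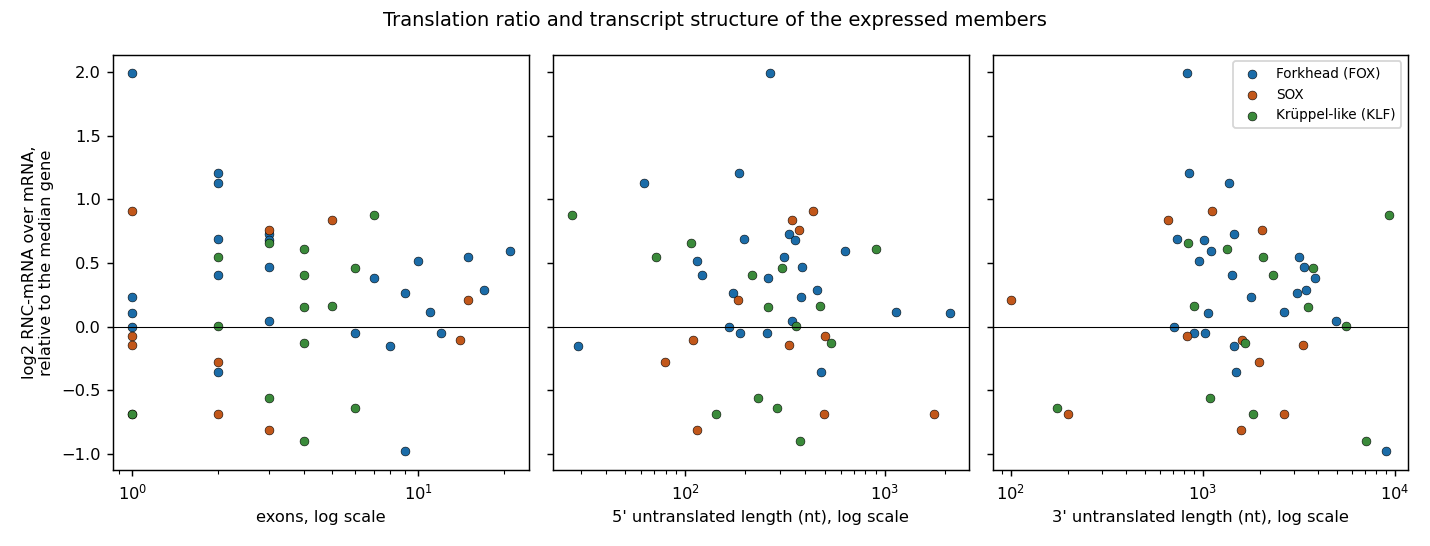
Relative log2 translation ratio (vertical axis) of the expressed members against the number of exons, the 5' leader length and the 3' untranslated length (horizontal axes, log scales; FOXK1 has no annotated leader and is absent from the middle panel), coloured by family. Single-exon members reach from -0.68 to 1.99, and rho over the 49 members was 0.02 for exons, -0.04 for the leader and -0.16 for the 3' region. The rho for the leader enters FOXK1 at 0 nt, though that gene is not plotted there.

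The partners and targets of these factors were described from lists of known genes, and no list was tested. Above the median gene lay 50% of all expressed genes and 52.6% of expressed NM records. By counting interval, 33.5% of expressed NM records lay wholly above the median and 29.7% wholly below. At least 2-fold above it lay 1.33% of them and at least 2-fold below 8.88%. FOXM1 targets of the G2 and M phases lay above the median gene in 16 of 22 cases (median 0.25), with CENPE, a mitotic kinesin, the one gene at least 2-fold below. By interval 14 of these targets lay above and 6 below. The most abundant were CKS1B, listed under a non-coding record of that gene, with 166 RPKM in RNC-mRNA and 136 RPKM in mRNA (0.32), and CDC20, an activator of the anaphase-promoting complex, with 115 RPKM in RNC-mRNA and 81.5 RPKM in mRNA (0.54). CENPA was highest (0.60). CENPE had 1.31 RPKM in RNC-mRNA and 3.16 RPKM in mRNA (-1.17, interval -1.55 to -0.92).

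FOXO regulators, such as AKT kinases and the 14-3-3 proteins that hold FOXO in the cytoplasm, were above the median gene in 18 of 23 expressed cases (median 0.24), and none lay 2-fold from it. By interval 15 regulators lay above and 3 below. YWHAE, listed under a non-coding record of that gene, had 499 RPKM in RNC-mRNA and 444 RPKM in mRNA (0.21), and YWHAQ had 232 RPKM in RNC-mRNA and 174 RPKM in mRNA (0.45). MAPK8, a stress kinase, was highest (0.76) and SGK3 lowest (-0.55). FOXO target genes went both ways, with 9 of 18 above (median -0.03), and by interval 8 above and 6 below. The superoxide dismutase SOD2 was highest (0.91), with 41.1 RPKM in RNC-mRNA and 22.4 RPKM in mRNA, and TXNIP, a thioredoxin inhibitor, was the most abundant, with 54.0 RPKM in RNC-mRNA and 44.2 RPKM in mRNA (0.33). The apoptosis gene BBC3 (-1.03), with 4.75 RPKM in RNC-mRNA and 10.1 RPKM in mRNA, and the gluconeogenic G6PC (-1.85), with 0.781 RPKM in RNC-mRNA and 3.17 RPKM in mRNA, were at least 2-fold below. CAT, the second most abundant target, had a ratio of 0.57.

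Hepatic and intestinal partners of FOXA lay above the median gene in 9 of 11 expressed cases (median 0.27), and by interval 8 lay above and 1 below. HNF4A had 95.2 RPKM in RNC-mRNA and 77.4 RPKM in mRNA (0.34), and CDX2, the master factor of intestine, had 87.8 RPKM in RNC-mRNA and 79.8 RPKM in mRNA (0.18). GATA6 was highest, with 34.8 RPKM in RNC-mRNA and 17.5 RPKM in mRNA (1.03), and its relative GATA4 lowest, with 1.14 RPKM in RNC-mRNA and 2.53 RPKM in mRNA (-1.05, interval -1.68 to -0.56). These 2 were the members of that list at least 2-fold from the median.

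Beta-catenin, TCF factors and Wnt regulators that act with SOX factors lay above in 14 of 17 cases (median 0.33), from AXIN1 (-0.10) to the stem cell receptor LGR5 (0.88), with BCL9L (65.7 RPKM in RNC-mRNA and 67.9 RPKM in mRNA, -0.0096) and CTNNB1 (58.1 RPKM in RNC-mRNA and 53.8 RPKM in mRNA, 0.15) the most abundant. By interval 10 of these 17 lay above, 0 below, and 7 spanned the median. Corepressors and coactivators lay above in 10 of 17 cases (median 0.13), from SIN3B (-0.55) to EP300 (0.42), and by interval 8 lay above and 2 below. The deacetylase HDAC3, among the most abundant of them, had 51.6 RPKM in RNC-mRNA and 52.7 RPKM in mRNA (0.0077). The 2 SIN3 scaffolds differed: SIN3A had a ratio of 0.33 (interval 0.21 to 0.45) and SIN3B one of -0.55 (interval -0.72 to -0.38).

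SP factors, the nearest relatives of Krüppel-like factors, had 7 expressed genes of 9, with a median of 0.06. SP6 was the most abundant, with 105 RPKM in RNC-mRNA and 114 RPKM in mRNA (-0.08). SP5, a Wnt-induced gene, was highest, with 42.1 RPKM in RNC-mRNA and 20.7 RPKM in mRNA (1.06), and SP4 was lowest (-0.30). The spread among SP factors, from -0.30 to 1.06, lay within that of the member families.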

How the data were processed

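The deposited table holds 1 RPKM value per gene and library, which the authors computed before deposition, per the file headers, with 1 RefSeq record per symbol (18646 NM and 5063 NR). Per the submitters' processing notes, hg19 was used. The aligner and the counting tool are not named in the labels or headers. The labels' protocols name neither a strand-specific step nor molecular identifiers.

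Members were NM records whose symbol matched the FOX, SOX or KLF pattern. The members, lists and naming rule were chosen with earlier results of these data known. Every member may be named, with levels given for all expressed ones; from each list the 2 most abundant genes and the highest and lowest ratios were named, and others singled out were chosen after their values were seen. Some genes that this rule covers are not reported here.

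Library totals were taken as the number at which most genes of known GENCODE release 29 transcript length hold whole reads: 769 genes for RNC-mRNA (118 at the next best total) and 741 for mRNA (123). Reads per gene were then taken at the whole length nearest the reference transcript where it lay within 10% of it (39 of 49 expressed members), and otherwise as the fewest whole reads, with a relative error of 2e-07 allowed beyond rounding. Over all genes these reads sum to 107% of each total, so some genes' reads are overestimated or counted for more than one record. Clopper-Pearson intervals and the floor of 3 reads for a count of 0 use them, contain no pseudocount and cover counting error only, since PCR copies are not independent molecules. The recovery was tested on simulated data. Start codon contexts, exons and untranslated regions come from the GENCODE transcript linked to each RefSeq record on GRCh38. Where no length matched, the longest linked transcript was taken, which can differ from the one behind the level. Python 3.11.15, numpy 2.4.6, pandas 2.3.3 and scipy 1.17.1 were used. Alternatives concerned the pseudocount, the level filter, the centre of the ratios, zeros, NR records and reads.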

Additional observations from a re-analysis of the deposited data

Results flagged for a closer look

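Non-coding (NR) records that carry the families' symbols lie outside the comparison above, and 4 of them were present in the RNC-mRNA library above the limit of 3 reads that a count of 0 allows. FOXO3B was listed at 12.8 RPKM in RNC-mRNA and 11.6 RPKM in mRNA (0.19, interval 0.05 to 0.32), higher per length than FOXO3 in both libraries. FOXD2-AS1, antisense to the FOXD2 region, was listed at 3.53 RPKM in RNC-mRNA and 5.83 RPKM in mRNA (-0.67, interval -1.07 to -0.31). FOXN3-AS1 was listed at 2.01 RPKM in RNC-mRNA and 1.73 RPKM in mRNA (0.24, interval -0.69 to 1.22). FOXF1-AS1 was listed at 0.495 RPKM in RNC-mRNA and 1.24 RPKM in mRNA, on 17 and 37 reads (-1.13, interval -2.21 to -0.42). Whether these reads come from the non-coding records or from FOXO3, FOXD2, FOXN3 and FOXF1 was not tested.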

How the results depend on the processing

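The family medians kept their sign and stayed within their intervals over members under the 11 other settings tried, from 0.10 (no filter) to 0.32 (mean of at least 5 RPKM) for all members, 0.18 to 0.45 for FOX, -0.18 to -0.02 for SOX and 0.12 to 0.20 for KLF. The count at least 2-fold above the median stayed at 3 except with no filter, where it was 5 of 72. The count at least 2-fold below was 0 in the report; it was 1, FOXK1, with a mean of at least 5 RPKM, with ratios centred on NM records and with no centring, and 4 with no filter, whose centre lies at -0.14 in place of -0.04. The intervals above and below the median numbered 20 and 9 with the fewest whole reads, an alternative chosen after seeing the data. Signs turned only for FOXD1, FOXO3, KLF13, FOXN3, FOXP3 and SOX14, all near 0. With 1 RPKM added in place of 0.1, KLF7 (-0.57) and KLF12 (0.559) moved outside their counting intervals, and KLF10 (0.560) passed KLF12. FOXP4 and FOXM1 moved outside theirs with a mean of at least 5 RPKM and with no filter. KLF5 and SOX4 did so with no filter. No paired analysis was possible because each level has 1 library. Depth limits most of the 23 members listed below 1 RPKM, though the intervals of SOX5, FOXN4 and KLF17 exclude the median. The cause of the changes was not tested.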
